A study of Mus musculus with 6 samples.

Results

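The genes described here encode the enzymes that oxidise and conjugate foreign chemicals, namely the cytochrome P450, aldehyde dehydrogenase, glutathione transferase, UDP-glucuronosyltransferase and sulfotransferase families. They were chosen by gene symbol alone: the symbol begins with Cyp, Aldh, Ugt or Sult and a digit, or with Gst and a class letter, and Cyp51, an enzyme of cholesterol synthesis, was left out. This gave 136 genes of the 18193 that have a probe set of their own on the array, read by 187 probe sets. Each gene was taken from its brightest probe set over the 6 arrays, and 69 of the 136 genes were bright enough to be tested, against 13193 of all genes. The 72 P450 genes gave 25 tested genes, the 20 aldehyde dehydrogenases 18, the 20 glutathione transferases 15, the 13 sulfotransferases 6 and the 11 UDP-glucuronosyltransferases 5.

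The tissue was pancreatic islets, the hormone-secreting clusters of the pancreas, isolated at postnatal day 30 from males of OF-1, an outbred mouse stock, all wild-type. All groups shared this genotype, stock, sex and age, and they differed in what the mothers received on gestation days 9 to 16: vehicle, or bisphenol-A (BPA), a plastics monomer with weak estrogen-like activity, at 10 µg/kg/day (BPA10) or 100 µg/kg/day (BPA100). Each group had 2 Affymetrix arrays. The vehicle arrays held RNA of 5 mice on replicate 1 and of 1 mouse on replicate 2, the BPA10 arrays RNA of 1 mouse on replicate 1 and of 2 mice on replicate 2, and each BPA100 array RNA of 1 mouse. The labels do not say which mice shared a litter, so the p-values measure the spread between these 6 arrays.

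As background, oxidation by P450 enzymes exposes or adds a reactive group on a lipid-soluble molecule, aldehyde dehydrogenases turn reactive aldehydes into acids, and the transferases attach glutathione, glucuronic acid or sulfate so that the product can be excreted. BPA itself is cleared mainly as its glucuronide and, to a smaller degree, as its sulfate. Many of the same families also have work of their own in the body, such as making retinoic acid (the ALDH1A enzymes), breaking down cholesterol (CYP7, CYP27, CYP39 and CYP46) or ending vitamin D and retinoid signals (CYP24 and CYP26). Liver carries most of the drug-oxidising P450 enzymes, and islets hold fewer of them.

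Promoter sequences are shown for 4 members. Aldh1a1 and Aldh1a7 are close relatives that lie side by side, Cyp1a1 is the best known target of the aryl hydrocarbon receptor, a sensor of pollutants, and Gstm1 is one of the 18 tested members with a core motif of that receptor, taken because its values are described in detail below. Each is the 250 bases before a transcription start in RefSeq's annotation of GRCm38.p6, written on the gene's own strand. Capitals mark GCGTG, the core of the xenobiotic response element bound by that receptor, searched on both strands. The windows are chr19:20601718-20601967 (plus strand) for Aldh1a1, chr19:20727557-20727806 (minus strand) for Aldh1a7, chr3:108017974-108018223 (minus strand) for Gstm1 and chr9:57697363-57697612 (plus strand) for Cyp1a1. Aldh1a1 and Gstm1 have 2 starts each in the table, and the one at the higher coordinate is shown.
Aldh1a1: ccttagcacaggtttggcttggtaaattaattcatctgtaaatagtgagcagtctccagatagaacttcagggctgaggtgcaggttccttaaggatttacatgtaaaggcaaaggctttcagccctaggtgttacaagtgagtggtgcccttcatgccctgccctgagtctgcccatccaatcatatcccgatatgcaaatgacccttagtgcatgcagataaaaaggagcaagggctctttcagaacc
Aldh1a7: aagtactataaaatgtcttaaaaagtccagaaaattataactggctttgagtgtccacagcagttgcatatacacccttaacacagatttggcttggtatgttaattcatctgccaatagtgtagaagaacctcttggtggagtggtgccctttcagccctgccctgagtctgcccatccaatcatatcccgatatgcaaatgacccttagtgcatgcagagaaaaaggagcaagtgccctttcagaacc
Gstm1: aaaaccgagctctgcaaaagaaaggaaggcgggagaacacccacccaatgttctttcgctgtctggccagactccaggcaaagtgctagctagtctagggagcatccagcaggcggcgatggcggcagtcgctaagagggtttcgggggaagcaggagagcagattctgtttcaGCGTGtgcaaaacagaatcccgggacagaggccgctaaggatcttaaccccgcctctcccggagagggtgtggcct
Cyp1a1: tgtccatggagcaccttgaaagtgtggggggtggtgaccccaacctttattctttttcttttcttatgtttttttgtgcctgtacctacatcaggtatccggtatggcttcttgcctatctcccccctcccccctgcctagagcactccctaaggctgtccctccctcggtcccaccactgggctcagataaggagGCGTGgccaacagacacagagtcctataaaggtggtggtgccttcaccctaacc

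In a global alignment the Aldh1a1 and Aldh1a7 windows were identical at 175 of 235 aligned bases (74.5%), against 122 of 230 (53.0%) for Aldh1a1 and Gstm1, 2 unrelated members. No other protein-coding gene lies between Aldh1a1 and Aldh1a7 in the RefSeq table. Gstm1 had its GCGTG on the gene's strand at bases 175 to 179 of the window and Cyp1a1 at bases 197 to 201. Windows of 300 bases (250 before and 50 after the start) were also searched. GCGTG was found for 28 of the 104 members in the table (26.9%) and for 9500 of 27025 genes (35.2%). Of the 52 tested members in the table, 18 had it (34.6%), about the share of all genes. The core of the antioxidant response element, TGACNNNGC, was found for 11 of 104 members (10.6%) and 3781 of 27025 genes. The motifs were counted separately, also where their letters overlapped. A match is a run of letters in the window, so these shares describe sequence and say nothing of binding in islets. Of the 134 members that the table places, 67 lie next to another member, since many of these genes sit in tandem clusters.

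No enzyme gene passed an adjusted p of 0.05 in any comparison (limma, Benjamini-Hochberg over 27022 probe sets), and neither did any other gene (0%). For BPA10 against vehicle, 3 of the 69 genes, or 4.35%, had an unadjusted p under 0.05 by limma, against 6.01% of all genes tested. For BPA100 against vehicle the count was 1 (1.45%), against 4.13% of all genes, and for BPA100 against BPA10 it was 3 (4.35%), against 4.31%. By the F test of any difference among the 3 groups it was 3 (4.35%), against 4.43%. These shares were below those of all genes in the comparisons with vehicle and about equal to theirs between the doses and by the F test. Genes whose 2 arrays in one group both lay outside the range of the other group numbered 18 (26.1%) for BPA10 against vehicle, 18 (26.1%) for BPA100 against vehicle and 16 (23.2%) for BPA100 against BPA10, against 35.5%, 31.6% and 30.4% of all genes. The counts at unadjusted p depend on single arrays, and the shares of all genes moved with them. For BPA10 against vehicle the count was 8 (11.6%, against 7.06% of all genes) without vehicle replicate 1 and 1 (1.45%, against 2.81%) without vehicle replicate 2. Without BPA10 replicate 1 it was 3, all of them lower in BPA10, whereas the 3 with every array were all higher, and 35 of the 69 genes were then higher and 34 lower. For BPA100 against vehicle it was 4 (5.80%, against 5.06%) without BPA100 replicate 2. For BPA100 against BPA10 it was 10 (14.5%, against 6.77%) without BPA100 replicate 1, and without BPA10 replicate 1 the 3 genes were 2 higher and 1 lower, against 0 higher and 3 lower with every array.

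**Figure D1:**
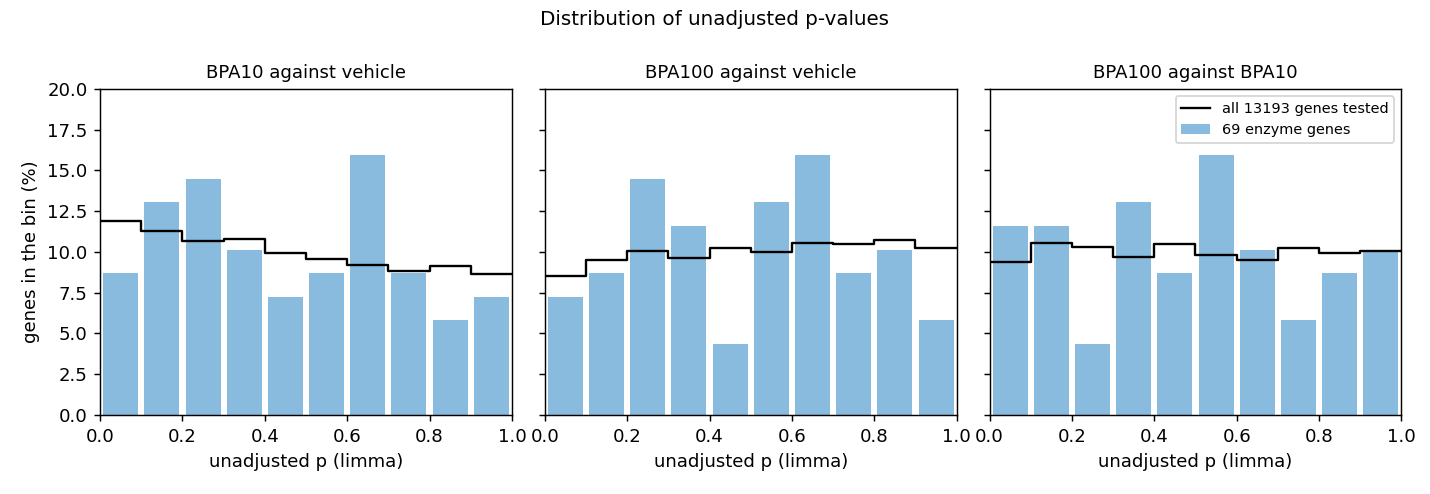
Unadjusted p-values (limma) of the 69 tested enzyme genes, as bars in 10 bins of equal width, and of all 13193 genes tested, as a black line, for BPA10 against vehicle, BPA100 against vehicle and BPA100 against BPA10. The y axis is the percentage of genes in each bin. The bin nearest 0 held 6, 5 and 8 of the enzyme genes in the 3 comparisons, which is 8.70%, 7.25% and 11.6%, against 11.9%, 8.54% and 9.40% of all genes.

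The arrays set wide limits on what could be seen. A difference is given below as the mean log2(signal + 1) of the first group minus that of the second, with its standard error, so that a difference of 1 is a doubling. The median standard error was 0.303 for the enzyme genes and 0.209 for all genes, and the enzyme genes were dimmer, with a median log2 value of 6.05 against 7.40. The 95% interval of the difference lay wholly between a halving and a doubling for 41 of the 69 enzyme genes for BPA10 against vehicle, 38 for BPA100 against vehicle and 38 for BPA100 against BPA10. Those are 59.4%, 55.1% and 55.1% of them, against 77.0%, 79.1% and 77.6% of all genes. For these genes a doubling or halving lay outside the interval, and for the others it did not. Across the 69 genes the median difference was 0.10 for BPA10 against vehicle (44 higher, 25 lower), 0.07 for BPA100 against vehicle (35 higher, 34 lower) and -0.04 for BPA100 against BPA10 (29 higher, 40 lower), beside 0.02, -0.00 and -0.02 for all genes. The higher genes were 63.8%, 50.7% and 42.0% of the enzyme genes, against 53.0%, 49.8% and 47.0% of all genes. Counts of higher and lower genes in the groups below are to be read beside these shares of all genes.

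**Figure D2:**
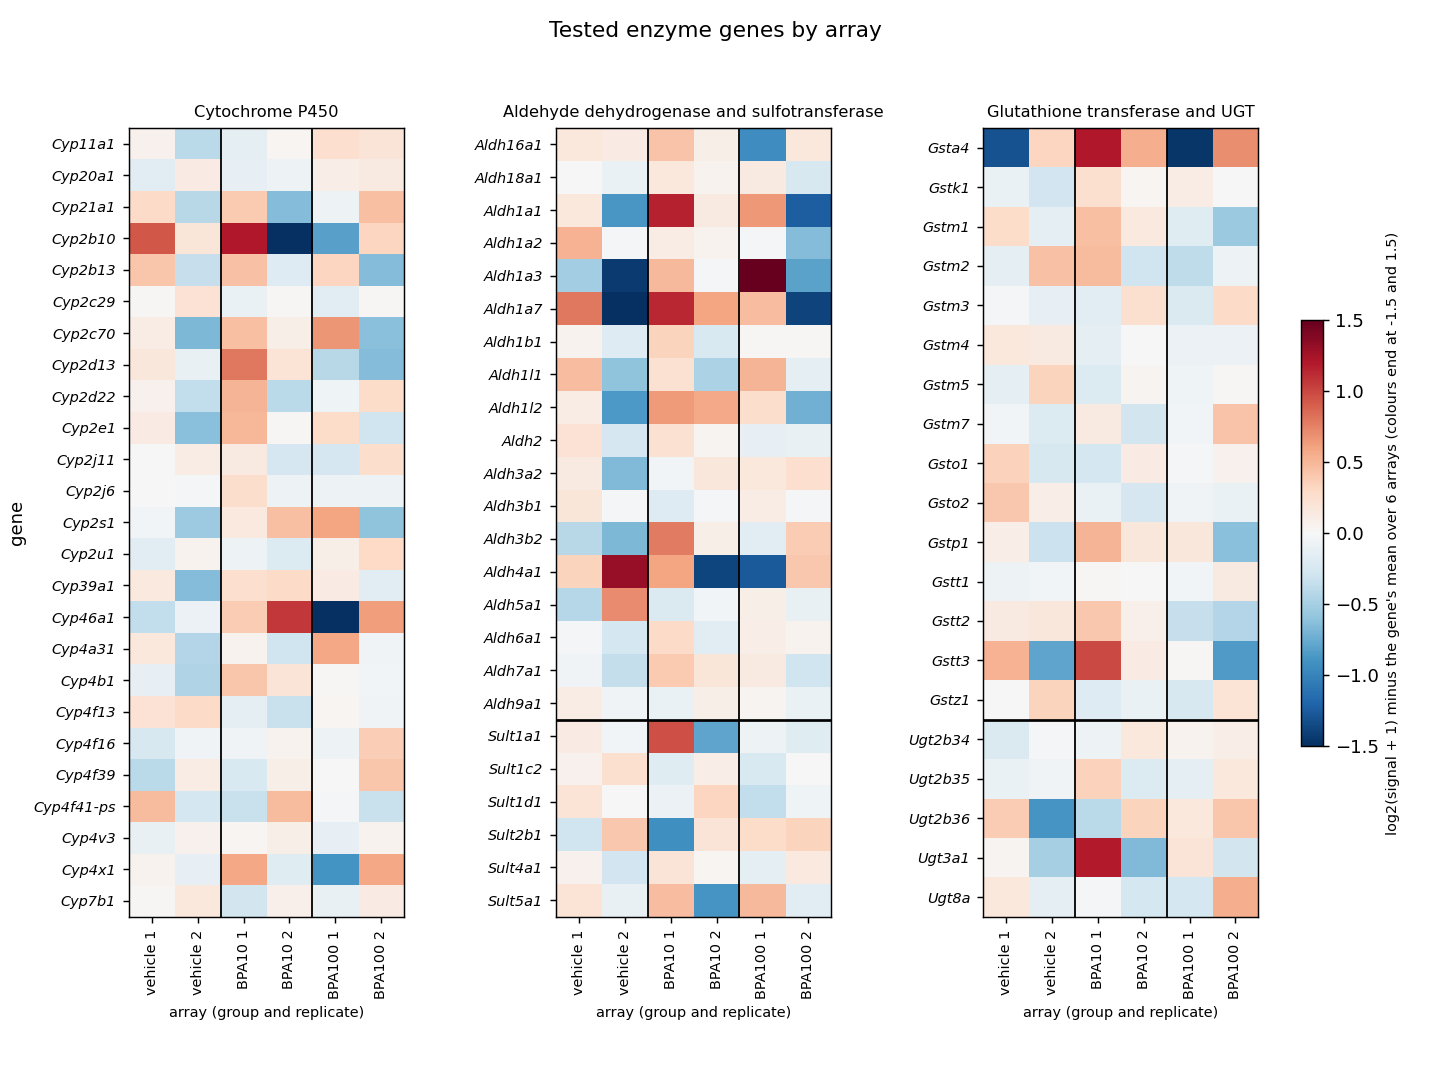
Each row is one of the 69 tested enzyme genes and each column an array, with the colour giving log2(signal + 1) minus that gene's mean over the 6 arrays (red higher, blue lower, colours ending at -1.5 and 1.5). Vertical lines part the vehicle, BPA10 and BPA100 arrays. The strongest colours belong to Aldh1a1, Aldh1a3, Aldh1a7, Aldh4a1, Cyp2b10, Cyp46a1 and Gsta4.

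Some arrays held the highest or lowest signal of these genes more often than others. BPA10 replicate 1 held the highest signal for 29 of the 69 genes. Vehicle replicate 2 held the lowest for 18 and BPA10 replicate 2 for 16. How often these arrays were highest or lowest over all genes was not counted. These counts therefore cannot be called particular to the enzyme genes. Relative to the vehicle mean, the median enzyme gene stood at 0.12 and -0.12 on the vehicle arrays, at 0.25 and 0.05 on the BPA10 arrays and at 0.02 and -0.04 on the BPA100 arrays (log2). Over all genes the medians were 0.02 and -0.02 for vehicle, 0.04 and 0.008 for BPA10, and 0.005 and 0.002 for BPA100. The ratio of the highest to the lowest of the 6 arrays had a median of 1.79-fold over the enzyme genes and 1.47-fold over all genes. It was under 1.5-fold for 23 enzyme genes (33.3%, against 53.2% of all genes) and over 4-fold for 7 (10.1%, against 2.58%). Those 7 were Aldh1a3 (13.2-fold), Cyp2b10 (8.14-fold), Aldh1a7 (6.54-fold), Aldh4a1 (6.45-fold), Cyp46a1 (6.38-fold), Gsta4 (6.33-fold) and Aldh1a1 (5.25-fold). Of these, Aldh1a3, Cyp46a1, Cyp2b10, Gsta4 and Aldh4a1 were dim, with mean log2 values of 4.61, 4.62, 4.63, 4.63 and 4.84 (brightness limit 4.60). Their lowest arrays read 8, 7, 6, 8 and 10 in the same order. The enzyme genes were dimmer than all genes, and the shares were not compared at equal brightness.

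The arrays also differed in RNA of other pancreatic cell types, given here by lists of marker genes as the mean log2 difference from the vehicle mean. The 16 acinar (digestive enzyme) markers stood at 0.45 and -0.45 on the vehicle arrays, at 1.18 and 0.98 on the BPA10 arrays and at 0.97 and 0.11 on the BPA100 arrays. All 16 were higher in BPA10 than in vehicle, 14 of them at unadjusted p under 0.05, and their summed signal was 127290 to 138364 on BPA10 arrays and 59015 to 98701 on vehicle arrays. The 16 stellate cell and fibroblast markers stood at 0.15 and -0.15 on the vehicle arrays, at 0.66 and 0.04 on the BPA10 arrays and at -0.36 and -0.67 on the BPA100 arrays. Of these, 15 were lower in BPA100 than in vehicle, 4 at unadjusted p under 0.05, with summed signals of 6615 to 9059 on BPA100 arrays and 9400 to 11008 on vehicle arrays. For BPA100 against BPA10, 15 of the 16 stellate cell markers were lower (median -0.89, 11 at unadjusted p under 0.05), as were all 16 acinar markers (median -0.37, 2 at unadjusted p) and all 13 tested macrophage and myeloid markers (median -0.48, 2 at unadjusted p). The 8 beta cell markers were all higher in BPA10 than in vehicle, 3 at unadjusted p under 0.05, with summed signals of 40831 to 41933 on BPA10 arrays and 33530 to 35071 on vehicle arrays. Beside these counts, 6.01% of all genes had an unadjusted p under 0.05 by limma for BPA10 against vehicle. The share was 4.13% for BPA100 against vehicle and 4.31% for BPA100 against BPA10. No gene of these lists was at 0 on any array, and none passed an adjusted p of 0.05. The part of these markers in the enzyme values below was not tested, and in bulk RNA fewer cells of a type and less RNA per cell cannot be told apart.

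Among the P450 enzymes of the CYP1, CYP2 and CYP3 families, which take the first step in oxidising drugs and pollutants, 11 of 43 genes were tested. For BPA10 against vehicle 7 were higher and 4 lower (median 0.10), for BPA100 against vehicle 5 and 6 (median -0.06), and for BPA100 against BPA10 4 and 7 (median -0.17). Cyp2d13, of the mouse CYP2D group, was the one past an unadjusted p of 0.05, for BPA100 against BPA10 (-1.03 ± 0.34, unadjusted p = 0.0161, adjusted p = 0.964 by limma). Its signal was 38 and 31 on the vehicle arrays, 59 and 39 on the BPA10 arrays and 25 and 21 on the BPA100 arrays. Both BPA100 arrays thus lay below all others, and against vehicle the difference was -0.56 ± 0.34. Without BPA10 replicate 1, the BPA100 against BPA10 difference was -0.74. The other Cyp2d13 probe set, below the brightness limit, read 4 and 7 on vehicle arrays and 1 on every BPA array. Cyp2d13, like Cyp4f41-ps, is not among the 134 members placed for the count of neighbours. Whether Cyp2d13 encodes a working enzyme was not tested.

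No other tested gene of this group had an unadjusted p under 0.05. Cyp2e1, which oxidises ethanol and other small solvents, read 26 and 15 on vehicle arrays, 34 and 24 on BPA10 arrays and 29 and 19 on BPA100 arrays. Cyp2s1, a dioxin-inducible enzyme, read 36 and 25 on vehicle arrays, 41 and 51 on BPA10 arrays and 56 and 24 on BPA100 arrays. Both had overlapping BPA100 and vehicle arrays. Cyp2u1, which hydroxylates long-chain fatty acids, read 37 and 43 on BPA100 arrays and 33 and 30 on BPA10 arrays (0.33 ± 0.31). The mean of its probe sets turned that sign (-0.31). Cyp2b10, the mouse gene used as a marker of activation of the receptor CAR, was scattered within groups, at 46 and 27 in vehicle, 56 and 6 in BPA10 and 13 and 30 in BPA100.

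The enzymes best known for induction by pollutants were near the bottom of the scale. The 67 members below the brightness limit had a median signal of 13 over all arrays, 66 of them stayed under 50 on every array, and the highest single value was 54, for Cyp27a1. The limit is a mean log2(signal + 1) of 4.60. Just inside it were Aldh1a3, Cyp46a1 and Cyp2e1 (4.61, 4.62 and 4.63), and just outside Cyp2d12, Cyp2c55 and Cyp27a1 (4.58, 4.56 and 4.55). Cyp1a2, a liver enzyme that oxidises caffeine and estrogens, read 1 or 2 on all 6 arrays. Cyp1b1, which hydroxylates estradiol, read 10 to 18, and Cyp3a11 and Cyp3a13, mouse drug-oxidising enzymes, read 4 to 17 and 8 to 25.

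Cyp1a1, whose promoter is printed above, read 1 and 3 on the vehicle arrays, 39 and 25 on the BPA10 arrays and 18 and 1 on the BPA100 arrays. Both BPA10 arrays were above both vehicle arrays, while one BPA100 array lay between them and the other was as low as vehicle. It was not tested in the fit above. With no brightness limit its unadjusted p was 0.0131 for BPA10 against vehicle (adjusted p = 0.736 by limma). No size is given, because vehicle signals this low make it depend on the pseudocount. The p-value was taken from the same log2 values and depends on the pseudocount too. With no limit, 7 of the 136 genes (5.15%) had an unadjusted p under 0.05 for BPA10 against vehicle, against 5.51% of all genes. Besides Cyp1a1 these included Sult2a2 (17 and 13 in BPA10, 1 and 1 in vehicle), Cyp2f2 (14 and 12 in BPA10, 2 and 3 in vehicle) and Sult1c1 (8 and 4 in BPA10, 1 and 2 in vehicle), which were picked out after their values were seen and are all dim.

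CYP4 enzymes, which hydroxylate fatty acids and eicosanoids, gave 8 tested genes of 13, counting Cyp4f41-ps, a pseudogene by its symbol, and none had an unadjusted p under 0.05. For BPA10 against vehicle 6 were higher and 2 lower (median 0.08). Cyp4b1, which also activates some pulmonary toxins, read 70 and 60 on BPA10 arrays and 48 and 38 on vehicle arrays (0.59 ± 0.26, unadjusted p = 0.0528, adjusted p = 0.704 by limma), and its BPA100 arrays, at 53 and 51, stood between. Cyp4f13 read 62 and 65 on vehicle arrays, 48 and 42 on BPA10 arrays and 54 and 51 on BPA100 arrays (-0.49 ± 0.25 for BPA10 and -0.27 ± 0.25 for BPA100 against vehicle). All 4 BPA arrays were above both vehicle arrays for Cyp4b1 and below both for Cyp4f13. For BPA100 against vehicle the named gene was Cyp4f39, which makes ultra-long fatty acid alcohols for the skin barrier in mice, at 80 and 107 on BPA100 arrays and 60 and 86 on vehicle arrays (0.36 ± 0.27). Cyp4a31 read 58 and 37 on BPA100 arrays and 40 and 31 on BPA10 arrays (0.39 ± 0.36), a difference that was 0.07 without BPA100 replicate 1. Cyp4v3, a fatty acid hydroxylase linked to a retinal disease in its human counterpart, read 403 to 465 on all 6 arrays.

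The P450 enzymes of sterols, steroids, bile acids, vitamin D and retinoids, with Cyp20a1, whose substrate is unknown, grouped among them, gave 6 tested genes of 16, with medians of 0.02 for BPA10 against vehicle, 0.18 for BPA100 against vehicle and 0.16 for BPA100 against BPA10. Cyp39a1, which hydroxylates an oxysterol on the way to bile acids, read 289 and 296 on BPA10 arrays and 268 and 154 on vehicle arrays (0.52 ± 0.25, unadjusted p = 0.0709, adjusted p = 0.729 by limma). Without vehicle replicate 2 the difference was 0.13. Its BPA100 arrays read 264 and 214. Cyp7b1, another oxysterol hydroxylase, read 162 and 179 on vehicle arrays, 132 and 169 on BPA10 arrays and 148 and 175 on BPA100 arrays. Its groups overlapped. Cyp11a1, the first enzyme of steroid synthesis, read 30 to 48. Cyp46a1, which hydroxylates cholesterol in neurons, read 18 and 22 on vehicle arrays, 31 and 50 on BPA10 arrays and 7 and 37 on BPA100 arrays.

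Cyp20a1 read 875 and 894 on BPA100 arrays and 748 and 771 on BPA10 arrays (0.22 ± 0.14, unadjusted p = 0.151, adjusted p = 0.964 by limma). Its dimmer probe sets gave 0.02 and 0.28 for the same comparison. Below the brightness limit were Cyp17a1 of androgen synthesis, Cyp24a1 and Cyp27b1 of vitamin D, Cyp26a1 and Cyp26b1 of retinoic acid breakdown, and Cyp27a1 of bile acid synthesis, which read between 3 and 54. Cyp19a1, Gsta1, Ugt1a1 and Ugt1a6a had no probe set assigned to them alone and are not analysed here.

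**Figure D3:**
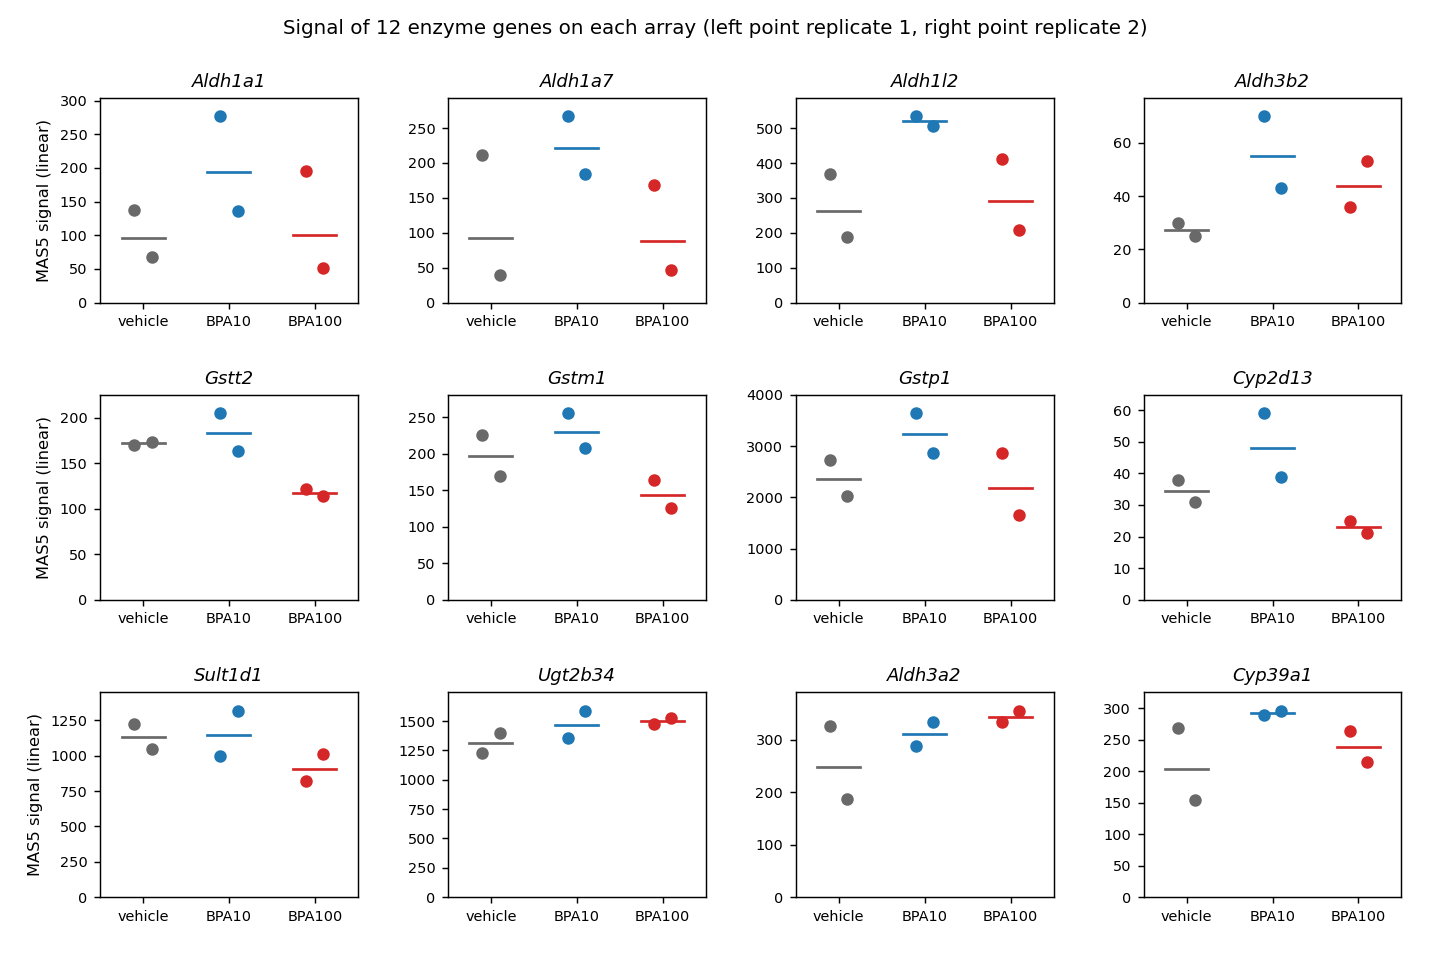
MAS5 signal on a linear y axis from 0 for 12 enzyme genes, with vehicle, BPA10 and BPA100 along the x axis. Points are arrays, with replicate 1 to the left and replicate 2 to the right, and the horizontal line is the group mean taken on the log2(signal + 1) scale. Both BPA100 points lie below all other points for Gstt2, Gstm1 and Cyp2d13, and both BPA10 points lie above all others for Aldh1l2, Cyp39a1 and Cyp2d13.

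The ALDH1A enzymes, which oxidise retinaldehyde to retinoic acid, were all tested (4 of 4), and 3 of them were among the 7 genes with over 4-fold between their highest and lowest array. Aldh1a1 read 138 and 67 on vehicle arrays, 277 and 136 on BPA10 arrays and 195 and 52 on BPA100 arrays. Its difference for BPA10 against vehicle was a doubling (1.01 ± 0.61), but BPA10 replicate 2 and vehicle replicate 1 had nearly the same signal (unadjusted p = 0.134 by limma). Aldh1a7, the rodent gene next to it, read 212 and 40 on vehicle arrays, 267 and 184 on BPA10 arrays and 168 and 46 on BPA100 arrays (1.25 ± 0.77 for BPA10 against vehicle, -1.32 ± 0.77 for BPA100 against BPA10).

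Both genes were highest on BPA10 replicate 1, and their 2 lowest arrays were vehicle replicate 2 and BPA100 replicate 2. Those are also the arrays with the lowest mean of the acinar markers. The genes are close in sequence, so a probe set of one may also read RNA of the other, and this was not tested. Aldh1a2, the retinoic acid source of the embryo's mesoderm, read 41 and 26 on BPA100 arrays and 60 and 41 on vehicle arrays (-0.59 ± 0.34). Aldh1a3, whose RNA is a known sign of dedifferentiated beta cells in diabetic mice, read 16 and 8 on vehicle arrays, 33 and 23 on BPA10 arrays and 118 and 13 on BPA100 arrays. Its difference of 1.72 ± 0.87 for BPA100 against vehicle (unadjusted p = 0.0822, adjusted p = 1 by limma) rested on BPA100 replicate 1, without which it was 0.18. The 118 on that array also carried the gene past the brightness limit (mean log2 value 4.605, limit 4.603). Its other probe sets were below the limit. The brighter of them read 23 and 5 in vehicle, 11 and 1 in BPA10 and 30 and 11 in BPA100. The dimmer read 10 and 8, 13 and 8, and 10 and 4 in the same order.

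Of the other aldehyde dehydrogenases 14 of 16 were tested, and the 3 genes with an unadjusted p under 0.05 for BPA10 against vehicle were all in this group. Aldh1l2, the mitochondrial enzyme that oxidises formyl-tetrahydrofolate, read 535 and 508 on BPA10 arrays and 369 and 188 on vehicle arrays, a difference of 0.98 ± 0.36 (unadjusted p = 0.0262, adjusted p = 0.680 by limma). Its BPA100 arrays read 413 and 207, which overlapped the vehicle range, and BPA100 against BPA10 gave -0.83 ± 0.36 (unadjusted p = 0.0505, adjusted p = 0.964 by limma). Without vehicle replicate 2 the BPA10 against vehicle difference was 0.50, and without vehicle replicate 1 it was 1.47. Aldh7a1, which acts in lysine breakdown, read 303 and 244 on vehicle arrays, 412 and 357 on BPA10 arrays and 345 and 254 on BPA100 arrays. Its BPA10 against vehicle difference was 0.49 ± 0.20 (unadjusted p = 0.0345, adjusted p = 0.686 by limma).

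Aldh1l2 and Aldh7a1 ranked the 6 arrays exactly as the mean of the acinar markers did, with BPA10 replicate 1 highest and vehicle replicate 2 lowest. Of the 69 enzyme genes 2 had that order (2.90%), as had 64 of all genes (0.485%). Each marker list was compared in this way. The orders of the stellate cell list and of a list of hepatocyte markers were each shared by 1 enzyme gene. The orders of the beta cell, duct cell, endothelial and macrophage lists were shared by 0. The acinar order rests on a near tie, 0.98 on BPA10 replicate 2 and 0.97 on BPA100 replicate 1. Aldh1l2 and Aldh7a1 had already been named for being higher in BPA10 than in vehicle. These counts are of 1 or 2 genes, and a link to a cell type was not tested. Aldh3b2, an aldehyde dehydrogenase of lipid droplets in mice, read 70 and 43 on BPA10 arrays and 30 and 25 on vehicle arrays (0.98 ± 0.35, unadjusted p = 0.0235, adjusted p = 0.669 by limma). Its BPA100 arrays, at 36 and 53, were also above both vehicle arrays (0.65 ± 0.35, adjusted p = 1 by limma). Aldh3b2 was the one named gene of these families with a difference of over 0.6 above vehicle at both doses and no overlap with the vehicle arrays, and the comparisons share those 2 arrays. Its difference from vehicle lay between 0.63 and 1.32 for BPA10 and between 0.38 and 0.93 for BPA100 when single arrays were left out.

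Aldh3a2, which clears fatty aldehydes, read 333 and 355 on BPA100 arrays and 326 and 187 on vehicle arrays (0.48 ± 0.25, adjusted p = 1 by limma). Without vehicle replicate 2 that difference was 0.08. Aldh4a1, of proline breakdown, had the lowest difference of the families at both doses, -1.22 ± 0.75 for BPA10 against vehicle and -1.24 ± 0.75 for BPA100 against vehicle. Its arrays read 35 and 70 for vehicle, 42 and 10 for BPA10 and 11 and 37 for BPA100, so the groups overlapped. Aldh2, the mitochondrial enzyme that clears acetaldehyde, read 366 to 510, and its 2 BPA100 arrays (399 and 401) lay within the vehicle range (366 and 505). Aldh18a1, which starts proline synthesis, read 1211 to 1597. Aldh1l1, the cytosolic relative of Aldh1l2, read 64 and 30 on vehicle arrays, 54 and 33 on BPA10 arrays and 66 and 42 on BPA100 arrays. Aldh3a1, of the cornea, was below the brightness limit at 17 to 29.

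**Figure D4:**
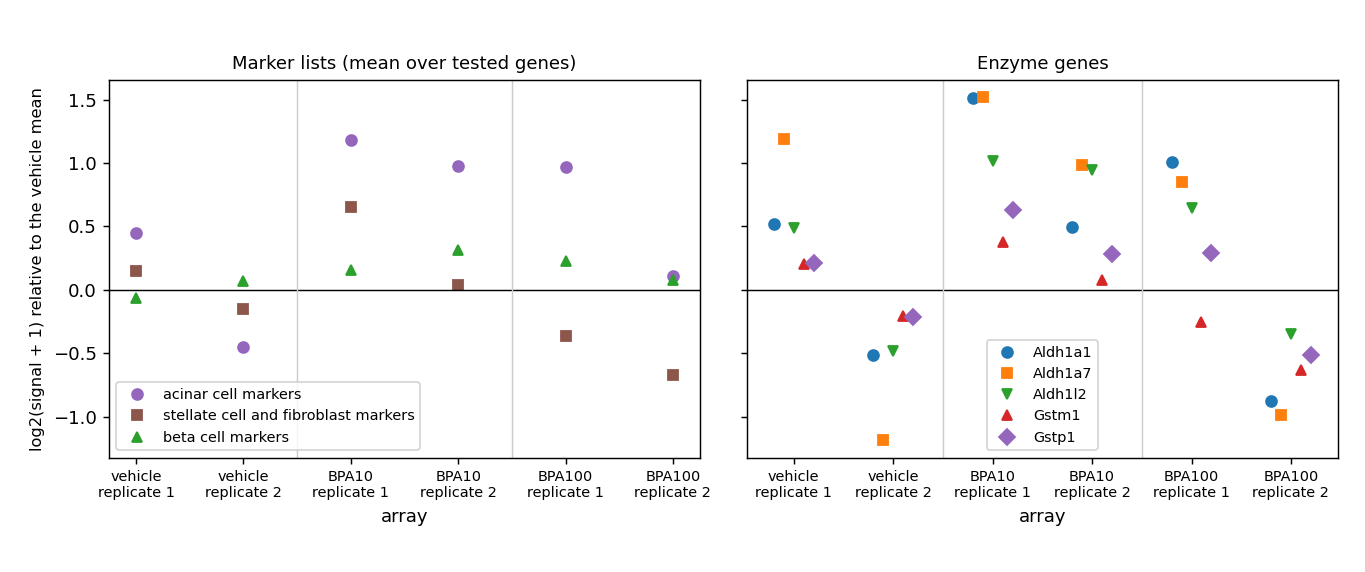
Left, mean log2(signal + 1) of the acinar, stellate and beta cell marker lists on each array relative to the mean of the 2 vehicle arrays. Right, the same scale for 5 enzyme genes, with points of one array set side by side. Aldh1a1, Aldh1a7, Aldh1l2 and the acinar markers all have a low point on vehicle replicate 2 and a high point on BPA10 replicate 1, while Gstm1 and the stellate markers are below the vehicle mean on both BPA100 arrays.

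Glutathione transferases, which couple glutathione to electrophiles and peroxides, gave 15 tested genes of 20. For BPA10 against vehicle 9 were higher and 6 lower (median 0.07), for BPA100 against vehicle 5 and 10 (median -0.12), and for BPA100 against BPA10 6 and 9 (median -0.02). Gstt2, a theta-class enzyme, read 122 and 114 on BPA100 arrays and 170 and 174 on vehicle arrays, and it was the one enzyme gene with an unadjusted p under 0.05 in that comparison (-0.54 ± 0.18, unadjusted p = 0.0171, adjusted p = 1 by limma). The BPA10 arrays read 205 and 164, and BPA100 against BPA10 gave -0.63 ± 0.18 (unadjusted p = 0.00785, adjusted p = 0.964 by limma). The 2 BPA100 arrays were the lowest of the 6 and close to each other. With any 1 array left out the differences stayed between -0.59 and -0.49 against vehicle and between -0.79 and -0.47 against BPA10. Gstt1, of the same class, read 421 and 432 on vehicle arrays, 451 and 447 on BPA10 arrays and 432 and 490 on BPA100 arrays. Gstt3, also of that class, read 61 and 24 on vehicle arrays, 85 and 46 on BPA10 arrays and 43 and 23 on BPA100 arrays. Its difference for BPA100 against BPA10 was -0.97 ± 0.51, with no overlap, and for BPA100 against vehicle -0.28 ± 0.51. Stellate, acinar and macrophage markers were also lower in BPA100 than in BPA10, as given above, and their part in these values was not tested.

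Gstm1, a mu-class enzyme, read 226 and 170 on vehicle arrays, 255 and 207 on BPA10 arrays and 164 and 126 on BPA100 arrays. BPA100 against BPA10 gave -0.67 ± 0.22 (unadjusted p = 0.0142, adjusted p = 0.964 by limma) and BPA100 against vehicle -0.44 ± 0.22 (unadjusted p = 0.0744, adjusted p = 1). The 3 dimmer probe sets of Gstm1 gave -0.33, -0.53 and -0.25 for BPA100 against BPA10, and -0.14, 0.03 and -0.07 for BPA100 against vehicle. The sign was thus shared by all 4 probe sets between the doses and by 3 of 4 against vehicle, and the brightest set had the largest size in both. The brightest set carries the annotation suffix for probes that can also bind related genes. Gstm1 ranked the 6 arrays as the stellate and fibroblast markers did. It was 1 of 69 enzyme genes (1.45%) with that order, against 0.303% of all genes. A link of Gstm1 to these cells was not tested.

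The differences of Gstm1 from other mu-class genes were not tested. Gstm2 read 142 and 214 on vehicle arrays, 219 and 128 on BPA10 arrays and 121 and 150 on BPA100 arrays (-0.37 ± 0.30 for BPA100 against vehicle, -0.31 ± 0.30 for BPA100 against BPA10). Gstm4 read 148 and 145 on vehicle arrays, 121 and 133 on BPA10 arrays and 125 and 125 on BPA100 arrays, so all 4 BPA arrays were below both vehicle arrays (-0.21 ± 0.17 for BPA10, -0.23 ± 0.17 for BPA100). Gstm5 read 396 to 576 over all arrays with overlapping groups. Gstp1, the pi-class enzyme, read 2727 and 2035 on vehicle arrays, 3638 and 2871 on BPA10 arrays and 2874 and 1648 on BPA100 arrays (0.46 ± 0.26 for BPA10 against vehicle, -0.57 ± 0.26 for BPA100 against BPA10, unadjusted p = 0.116 and 0.0584 by limma). Its BPA10 replicate 2 and BPA100 replicate 1 had about the same signal.

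Gsta4, which removes hydroxynonenal made by lipid peroxidation, read 9 and 30 on vehicle arrays, 56 and 35 on BPA10 arrays and 8 and 39 on BPA100 arrays. Vehicle and BPA100 each had a low array and a higher one, so their arrays spanned most of the gene's range. Gstk1, of peroxisomes and mitochondria, read 154 and 135 on vehicle arrays, 195 and 168 on BPA10 arrays and 177 and 164 on BPA100 arrays (0.33 ± 0.18 and 0.24 ± 0.18 for the 2 doses against vehicle). All 4 BPA arrays were above both vehicle arrays. Gstz1, of tyrosine breakdown, read 552 and 587 on BPA10 arrays and 631 and 798 on vehicle arrays (-0.32 ± 0.18). Gsto2, of the omega class, read 87 and 70 on vehicle arrays, 61 and 55 on BPA10 arrays and 63 and 61 on BPA100 arrays (-0.42 ± 0.24 for BPA10 and -0.33 ± 0.24 for BPA100 against vehicle), with all 4 BPA arrays below both vehicle arrays. Gsto1 read 443 to 677 with overlapping groups, and Gsta3 was below the limit at 11 to 29.

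UDP-glucuronosyltransferases, some of which glucuronidate BPA, gave 5 tested genes of 11, none with an unadjusted p under 0.05 in its brightest probe set. All 5 were higher in BPA100 than in vehicle, by 0.08 to 0.54 (median 0.19), beside 49.8% of all genes that were higher. In BPA10, 4 of 5 were higher than in vehicle, beside 53.0% of all genes. Ugt2b35, Ugt2b36 and Ugt3a1 were dim, with mean log2 values of 5.01, 4.79 and 4.66 (limit 4.60). Ugt2b36, with the largest BPA100 difference, read 30 and 36 on BPA100 arrays and 35 and 14 on vehicle arrays. Ugt3a1 read 28 and 20 on BPA100 arrays and 25 and 17 on vehicle arrays. Ugt2b35 read 28 and 35 on BPA100 arrays and 29 and 30 on vehicle arrays. The BPA100 arrays of every tested gene but Ugt2b34 overlapped the vehicle arrays. Ugt2b34 read 1229 and 1397 on vehicle arrays, 1353 and 1590 on BPA10 arrays and 1478 and 1523 on BPA100 arrays, and the BPA100 against vehicle difference was 0.20 ± 0.13 (unadjusted p = 0.182, adjusted p = 1 by limma). Its second probe set read 1027 and 1180 on vehicle arrays, 1264 and 1572 on BPA10 arrays and 1287 and 1238 on BPA100 arrays, so all 4 BPA arrays lay above both vehicle arrays there. The differences from vehicle in that set were 0.36 for BPA10 (unadjusted p = 0.0391 by limma) and 0.20 for BPA100. The brightest Ugt2b34 set is marked as able to bind several transcripts, and the 95% interval of its BPA100 against vehicle difference ran from -0.11 to 0.50. Ugt8a, which makes the galactolipid of myelin, read 94 and 166 on BPA100 arrays and 127 and 102 on vehicle arrays. Ugt2b1, the mouse relative of the rat enzyme known for BPA glucuronidation, was below the limit at 11 to 20.

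Sulfotransferases gave 6 tested genes of 13, with medians of -0.09, -0.02 and -0.09 in the 3 comparisons and none with an unadjusted p under 0.05 in its brightest probe set. Sult1d1, which sulfates catecholamines in mice, read 1222 and 1050 on vehicle arrays, 995 and 1319 on BPA10 arrays and 818 and 1010 on BPA100 arrays. Both BPA100 arrays lay below both vehicle arrays (-0.32 ± 0.18, unadjusted p = 0.109, adjusted p = 1 by limma). Its dimmer probe set had the same feature, at 212 and 276 on BPA100 arrays and 355 and 300 on vehicle arrays (-0.43, unadjusted p = 0.0480 by limma). Sult1a1, the phenol sulfotransferase, read 110 and 98 on vehicle arrays, 199 and 58 on BPA10 arrays and 96 and 89 on BPA100 arrays, so the 2 BPA10 arrays were its highest and its lowest.

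Sult2b1, which sulfates cholesterol, read 54 and 56 on BPA100 arrays and 23 and 51 on BPA10 arrays (0.66 ± 0.41), and 0.11 was left of that without BPA10 replicate 1. For BPA10 against vehicle it gave -0.42 ± 0.41, which turned to 0.14 without the same array. Sult1c2 read 81 and 95 on BPA100 arrays and 100 and 113 on vehicle arrays, without overlap, and Sult4a1, of the brain, read 52 to 73 with overlapping groups. Sult1b1, of thyroid hormone sulfation, and Sult1e1, the estrogen sulfotransferase, were below the limit at 11 to 19 and 1 to 2.

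**Figure D5:**
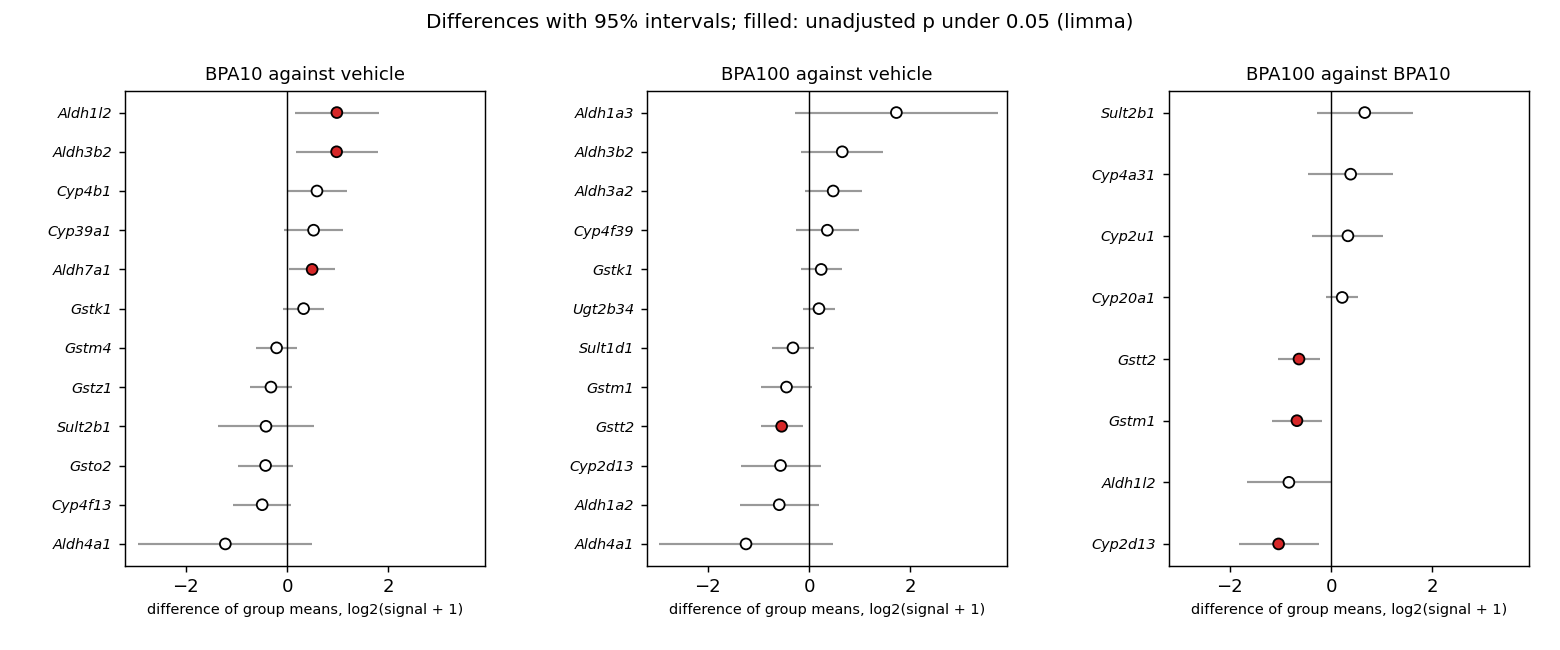
Differences in mean log2(signal + 1) with 95% intervals (limma) for the enzyme genes with the smallest unadjusted p in each direction, for BPA10 against vehicle, BPA100 against vehicle and BPA100 against BPA10. Filled points have an unadjusted p under 0.05. The filled points are Aldh1l2, Aldh3b2 and Aldh7a1 at the low dose, Gstt2 at the high dose, and Gstt2, Gstm1 and Cyp2d13 between the doses.

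Several genes have more than 1 probe set, which gives a check within the arrays. Of 17 enzyme genes with several tested probe sets, all of a gene's sets had the same sign for 8 in BPA10 against vehicle, 9 in BPA100 against vehicle and 10 in BPA100 against BPA10. The signs were mixed for the remaining 9, 8 and 7 genes, and the share over all genes was not counted. Aldh18a1 was among those with one sign for BPA10 against vehicle (0.15 to 0.46 over 5 sets) and BPA100 against BPA10 (-0.44 to -0.10). Cyp2u1, Gsto1 and Ugt8a had sets of opposite sign for BPA100 against BPA10.

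The genes that act around these enzymes gave no adjusted p under 0.05 either. Counts and medians of these lists are given for BPA10 against vehicle, BPA100 against vehicle and BPA100 against BPA10 in turn. Of all genes tested, 6.01%, 4.13% and 4.31% had an unadjusted p under 0.05 by limma in these comparisons. Among 13 tested receptors and partner proteins that sense foreign chemicals (medians 0.07, -0.09 and -0.05), 1 had an unadjusted p under 0.05 in each comparison with vehicle. For BPA10 it was Mafg, a partner of the oxidative stress factor NRF2, with 227 and 297 on BPA10 arrays and 328 and 406 on vehicle arrays (-0.49 ± 0.19). For BPA100 it was Arnt, the partner of the aryl hydrocarbon receptor, with 225 and 352 on BPA100 arrays and 204 and 172 on vehicle arrays (0.58 ± 0.22). Among 29 other oxidising, reducing and hydrolysing enzymes, the counts at unadjusted p under 0.05 were 0, 1 and 1 (medians 0.09, 0.01 and -0.10). Akr1c14, which reduces steroids, read 653 and 380 on vehicle arrays, 681 and 799 on BPA10 arrays and 943 and 725 on BPA100 arrays (0.73 ± 0.25 for BPA100 against vehicle, unadjusted p = 0.0183, adjusted p = 1 by limma).

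Among 17 other conjugating enzymes and suppliers of their cofactors, the counts were 1, 0 and 1 (medians 0.10, 0.06 and -0.07). Ugp2, which makes the precursor of UDP-glucuronic acid, read 692 and 755 on vehicle arrays, 922 and 894 on BPA10 arrays and 842 and 860 on BPA100 arrays, and Ugdh, which makes UDP-glucuronic acid from it, read 579 and 621 on vehicle arrays, 697 and 700 on BPA10 arrays and 611 and 658 on BPA100 arrays. For Ugp2 all 4 BPA arrays were above both vehicle arrays (0.33 ± 0.12 for BPA10, unadjusted p = 0.0266, adjusted p = 0.680 by limma, and 0.24 ± 0.12 for BPA100). Mgst1, a microsomal glutathione transferase, read 300 and 299 on BPA100 arrays and 770 and 348 on BPA10 arrays (-0.79 ± 0.31).

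Among 13 transporters, the counts were 1, 1 and 2 (medians -0.05, -0.06 and 0.03). Abcb4, which moves phosphatidylcholine into bile, read 155 and 169 on vehicle arrays, 120 and 176 on BPA10 arrays and 287 and 328 on BPA100 arrays. Its difference was 0.92 ± 0.21 for BPA100 against vehicle (unadjusted p = 0.00216, adjusted p = 0.927 by limma) and 1.07 ± 0.21 for BPA100 against BPA10 (unadjusted p = 0.000814, adjusted p = 0.897). The 22 antioxidant response genes gave 0, 1 and 1 (medians -0.00, -0.07 and -0.05), among them Cat, the peroxide-splitting catalase, with 182 and 242 on BPA100 arrays and 471 and 281 on BPA10 arrays (-0.79 ± 0.25). The 10 retinoid handling genes gave 1, 1 and 0 (medians -0.14, -0.02 and 0.01). The gene was Rdh11, a retinal reductase, in both cases, with 213 and 183 on vehicle arrays, 299 and 261 on BPA10 arrays and 287 and 293 on BPA100 arrays (0.50 ± 0.16 and 0.55 ± 0.16, unadjusted p = 0.0136 and 0.00814, adjusted p = 0.639 and 1 by limma). The 4 Rdh11 values at either dose lay above both vehicle arrays.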

How the data were processed

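Per the submitters' processing notes the arrays were summarised with MAS5. The deposited values are linear intensities, 1 whole number per probe set and array. No MAS5 version was at hand. RNA was purified on RNeasy columns and amplified in 2 rounds of cDNA synthesis to biotin-labelled cRNA, per the labels' protocols. Each array's mean without its lowest and highest 2% was 150, so a value is read against its own array's other probe sets, and array medians lay between 33 and 40. Precision is limited by having 2 arrays a group.

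The deposited intensities were taken as log2(signal + 1), which understates differences of dim genes. Of 45037 probe sets (64 controls left out), 27022 passed a brightness limit, the 40th percentile of mean log2 signal, and were tested with limma 3.58.1 in R 4.3.3 (lmFit, eBayes with an intensity trend) on all 6 arrays, with 3 residual and 5.4 prior degrees of freedom and Benjamini-Hochberg adjustment. A permutation test of 2 arrays against 2 cannot go below p = 0.333. The fit was tested on simulated data. Genes were named from GEO's platform annotation, and all 136 members had their identifier in RefSeq's GRCm38.p6 table. 11 probe sets shared by a member and another gene were not used. Detection calls were not used here. Probe sets of close relatives can bind each other's RNA, and signals of different probe sets are not comparable.

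Named genes are the 6 enzyme genes with the smallest unadjusted p in each direction for each dose against vehicle, 4 in each direction between the doses, a list of enzymes with well-known roles, and up to 2 genes of each pathway list in a comparison. Members and lists were chosen with earlier results of these data known. Alternatives covered the pseudocount, the brightness limit, normalization, variance model, probe set choice, and leaving out arrays.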

Additional observations from a re-analysis of the deposited data

How the results depend on the processing

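No setting gave an enzyme gene an adjusted p under 0.05, and of 562 recomputed values of 32 named differences, 560 kept their sign (lowest adjusted p 0.202). The exceptions were Cyp2u1 for BPA100 against BPA10 and Sult2b1 for BPA10 against vehicle. Cyp2u1 gave -0.31 with the mean of its probe sets. Sult2b1 ran from -0.97 to 0.14 when single arrays were left out, being 0.14 without BPA10 replicate 1. Many of the 562 values could not change sign. Another brightness limit, another variance model or a replicate block leaves a difference of group means as it is. So does leaving out an array of the group not compared. The 32 differences had also been picked for the smallest unadjusted p in each direction. Counts at unadjusted p under 0.05 moved more, and so did the shares of all genes, given beside the members' share. In the comparison of BPA10 with vehicle (3), the count was 7 with no brightness limit (5.15%, all genes 5.51%), 5 with only the groups compared (7.25%, all genes 6.03%) and 10 with only arrays of 1 mouse (14.5%, all genes 7.36%). Leaving out single arrays gave 1 to 8: 8 without vehicle replicate 1 (11.6%, all genes 7.06%), 1 without vehicle replicate 2 (1.45%, all genes 2.81%), 6 without BPA10 replicate 2 (8.70%, all genes 8.06%), 5 without either BPA100 array (7.25%, all genes 5.98% and 6.04%), and without BPA10 replicate 1 it was 3 (4.35%, all genes 3.73%), all lower in BPA10, whereas the 3 with every array were higher. For BPA100 against vehicle (1), it was 2 with median centring (2.90%, all genes 3.12%) and 4 with only arrays of 1 mouse (5.80%, all genes 3.59%), and 1 to 4 with single arrays left out: 3 without vehicle replicate 1 (4.35%, all genes 4.59%), 2 without BPA100 replicate 1 (2.90%, with 514 of 13193 genes in all) and 4 without BPA100 replicate 2 (5.80%, all genes 5.06%). For BPA100 against BPA10 (3), it was 5 with median centring, no limit, or only the groups compared (7.25%, 3.68% and 7.25%, all genes 3.93%, 4.30% and 4.16%), 6 with only arrays of 1 mouse (8.70%, all genes 5.65%), and 3 to 10 with single arrays left out: 10 without BPA100 replicate 1 (14.5%, all genes 6.77%), 7 without BPA10 replicate 2 (10.1%, all genes 7.85%), and 5 without BPA100 replicate 2 or either vehicle array (7.25%, all genes 3.11%, 4.13% and 4.15%). For any difference among the groups (3), it was 5 with median centring or no limit (7.25% and 3.68%, all genes 4.12% and 4.16%), 6 with only arrays of 1 mouse (8.70%, all genes 4.76%), and 2 to 7 with single arrays left out: 7 without vehicle replicate 1 or BPA10 replicate 2 (10.1%, all genes 5.31% and 6.61%), 5 without either BPA100 array (7.25%, all genes 5.37% and 4.69%) and 2 without vehicle replicate 2 (2.90%, all genes 3.15%). The median difference for BPA10 against vehicle was 0.40 with only arrays of 1 mouse and 0.0395 to 0.25 with single arrays left out, for BPA100 against BPA10 -0.19 with only arrays of 1 mouse and -0.19 to 0 with single arrays left out, and for BPA100 against vehicle -0.0753 (without vehicle replicate 2) to 0.10 (without vehicle replicate 1) with single arrays left out. The cause of these shifts was not tested. An arm left with 1 array is assumed to vary like the other groups.

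With the replicate number as a replicate block, the counts were 10, 3 and 10 for BPA10 against vehicle, BPA100 against vehicle and BPA100 against BPA10, and 9 for any difference, with 0 enzyme genes at adjusted p under 0.05. For the comparisons these are 14.5%, 4.35% and 14.5% of the members, against 9.37%, 5.86% and 7.45% of all genes, and for any difference 9 of 69 genes, against 8.18% of all genes. Arrays of the same number had deviations from their group means that correlated at 0.19 (BPA10 and vehicle), 0.20 (BPA100 and vehicle) and 0.08 (BPA100 and BPA10) over probe sets. The labels give the numbers no shared litter or day, so the arrays share only a number.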

Other observations

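Marker lists of cell types not described above also varied between arrays, with 0 genes at adjusted p under 0.05. The 7 tested duct cell markers were all lower in BPA100 than in vehicle (median -0.31, 1 at unadjusted p under 0.05 by limma) and lower in BPA100 than in BPA10 (median -0.46, 3 at unadjusted p). Krt8, a keratin of simple epithelia, read 1778 and 1399 on BPA100 arrays and 2242 and 2097 on BPA10 arrays (-0.46 ± 0.14). The 13 tested macrophage and myeloid markers included 11 that were lower in BPA100 than in vehicle (median -0.43, 4 at unadjusted p). Their summed signal was 1703 and 1881 on BPA100 arrays and 4895 and 1995 on vehicle arrays. The vehicle arrays differed from each other by more than vehicle replicate 2 did from either BPA100 array. The 9 tested endothelial markers had medians of 0.02 for BPA10 against vehicle and -0.06 for BPA100 against vehicle, with 0 at unadjusted p in each. Of all genes, 6.01% were under 0.05 for BPA10 against vehicle, 4.13% for BPA100 against vehicle and 4.31% for BPA100 against BPA10.

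Of the 12 hepatocyte markers found on the array, 4 were bright enough to be tested, and their part in the enzyme values was not tested. Alb, serum albumin, read 69 and 39 on vehicle arrays, 62 and 48 on BPA10 arrays and 37 and 43 on BPA100 arrays, so vehicle overlapped both doses while both BPA10 arrays lay above both BPA100 arrays (-0.44 ± 0.34 for BPA100 against BPA10, adjusted p = 0.964 by limma). Ttr, which islets also make, read 11888 and 11615 on BPA10 arrays and 9202 and 9741 on vehicle arrays (0.31 ± 0.12, unadjusted p = 0.0310, adjusted p = 0.683 by limma). Gstt3, a theta-class transferase, ranked the 6 arrays as the mean of these 4 markers did. It was 1 of 69 enzyme genes (1.45%) with that order, against 0.447% of all genes.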
